A study of Homo sapiens and Mus musculus with 12 samples.

Results

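The CCN genes *CCN1* to *CCN5* and 5 further genes that are read as targets of YAP and TEAD, namely *ANKRD1*, *AMOTL2*, *LATS2*, *AJUBA* and *AXL*, were followed in 2 breast cancer cell lines. They were chosen by gene symbol, as the human symbols and the mouse genes of the same symbol, and all 10 were found in both lines, among 63677 counted human genes and 47729 counted mouse genes. MDA-MB-231, a human triple-negative breast cancer line, and 4T1, a mouse mammary carcinoma line, were each given ponatinib, an inhibitor of many tyrosine kinases, at 1 μM for 24 h, or the solvent DMSO alone. All 4 groups are wild type by their labels, which call the cells epithelial, and each group has 3 RNA-seq libraries, 12 in all. Each line is a single established line, and since the lines also differ in species, line and species cannot be told apart. The labels do not say whether the libraries of a group came from separate cultures, so the tests measure the spread between these libraries, which may be technical.

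YAP and TAZ are coactivators without a DNA-binding domain of their own. They enter the nucleus when the Hippo kinases LATS1 and LATS2 are inactive and switch on genes through the TEAD factors, which bind DNA. *CCN1*, *CCN2* and *ANKRD1* are the targets most often read as a measure of this output in cultured epithelial and mesenchymal cells, and *AMOTL2* and *LATS2* are targets whose products restrain YAP in turn. CCN proteins are secreted, bind integrins and heparan sulfate, and share a modular build. CCN5 alone among them lacks the carboxy-terminal module.

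Because TEAD factors recognize GGAATG, the 250 bases before the annotated start are shown for human *CCN2* and for *ANKRD1* of both species, classical targets whose responses are set side by side further on. The human sequences are RefSeq promoters of GRCh38.p14, where *CCN2* lies at chr6:131951373-131951622 and *ANKRD1* at chr10:90921088-90921337, both on the minus strand. The mouse *Ankrd1* sequence was read from GRCm39 before the GENCODE vM39 start, at chr19:36097507-36097756 on the minus strand. They run 5′ to 3′ toward the gene, and capitals mark GGAATG on either strand.
Human CCN2: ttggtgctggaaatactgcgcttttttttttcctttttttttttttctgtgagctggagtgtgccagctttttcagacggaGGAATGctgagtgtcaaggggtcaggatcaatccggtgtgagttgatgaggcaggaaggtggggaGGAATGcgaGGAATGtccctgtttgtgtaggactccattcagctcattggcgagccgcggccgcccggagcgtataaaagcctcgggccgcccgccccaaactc
Human ANKRD1: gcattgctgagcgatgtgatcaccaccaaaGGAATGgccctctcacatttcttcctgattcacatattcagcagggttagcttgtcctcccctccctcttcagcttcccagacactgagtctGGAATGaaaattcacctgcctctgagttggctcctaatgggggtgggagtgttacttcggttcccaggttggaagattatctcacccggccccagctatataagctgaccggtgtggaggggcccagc
Mouse Ankrd1: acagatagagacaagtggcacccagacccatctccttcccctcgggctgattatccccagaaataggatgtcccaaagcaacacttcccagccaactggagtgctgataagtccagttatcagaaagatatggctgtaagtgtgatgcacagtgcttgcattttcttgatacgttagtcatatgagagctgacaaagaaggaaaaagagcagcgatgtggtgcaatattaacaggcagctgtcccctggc

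Human *CCN2* held 3 copies of GGAATG, with first bases at -169, -104 and -95 from the start, or spacings of 65 and 9 bases. *ANKRD1* had 2 copies in the human sequence, at -220 and -128, and none in the mouse one, and its longest identical stretch was 9 bases. *AMOTL2* had 1 copy in human, at -69 on the other strand, and 2 in mouse, at -235 and -135. Over windows from 250 bases before to 50 after the start, GGAATG on either strand was found for 4 of the 6 human genes with a RefSeq promoter (*CCN2*, *ANKRD1*, *AMOTL2* and *LATS2*, but not *AJUBA* or *AXL*), beside 14% of 35116 human promoters. In mouse it was found for 3 of the 9 genes searched (*Ccn1*, *Amotl2* and *Axl*), beside 14% of 21770 promoters. The AP-1 motif TGANTCA, which overlaps none of these copies, was found once, in human *ANKRD1* at -195, and is held by 7.71% of human promoters. The CArG box of SRF was in none of the windows of these genes. These matches are letters in a window and say nothing of whether a factor binds there. *CCN1*, *CCN3*, *CCN4* and *CCN5* are the human genes with no entry in the promoter table. Human *AMOTL2*, *AJUBA* and *AXL* have 2 entries each, of which only the one nearest the GENCODE start was searched. The 35116 human promoters count all entries.

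**Figure D1:**
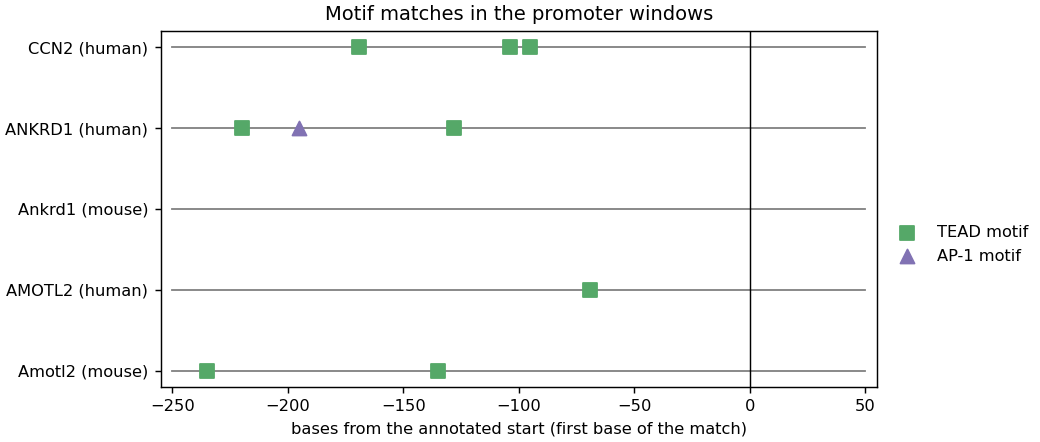
Motif matches in the promoter windows of human *CCN2* and of *ANKRD1* and *AMOTL2* in both species. The horizontal axis gives bases from the annotated start, each line is one gene from 250 bases before to 50 after it, squares are TEAD motifs and the triangle is an AP-1 motif. Human *CCN2* has 3 squares with spacings of 65 and 9 bases, and mouse *Ankrd1* has no mark.

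MDA-MB-231 libraries held 15012884 to 17301760 counts and 4T1 libraries 17800675 to 18951493. Levels are given as CPM, the count of a gene relative to the TMM-scaled total of its library. Of 7 epithelial markers, 5 reached 1 CPM in MDA-MB-231 with DMSO, where *CDH1* was at 0 counts, and 6 did so in 4T1. The summed level of the epithelial markers ranged from 1625 to 1993 CPM with DMSO and from 2242 to 2801 CPM with ponatinib in MDA-MB-231. This was carried by *KRT8* (890 ± 105 to 1638 ± 192 CPM). *KRT19* was at 737 ± 87.4 and 723 ± 76.0 CPM and *KRT18* at 117 ± 17.6 and 127 ± 17.6 CPM (SD, n = 3 each). That of the 4 mesenchymal markers went from 6429 to 7370 CPM with DMSO to 4401 to 4823 CPM with ponatinib in 4T1, carried by *Fn1* (3414 ± 323 to 970 ± 140 CPM), while *Vim* was at 3257 ± 341 and 3605 ± 154 CPM (SD, n = 3 each). The same sum went from 1342 to 1528 CPM to 947 to 1124 CPM in MDA-MB-231, with *VIM* falling and *FN1* rising, and the sum of *ESR1*, *PGR* and *ERBB2* went from 92.9 to 107 CPM to 167 to 178 CPM, nearly all of it *ERBB2*. The summed level of 6 fibroblast markers rose from 26.5 to 31.5 CPM to 81.1 to 87.8 CPM in MDA-MB-231, carried by *COL1A1* (27.8 ± 2.99 to 74.9 ± 2.12 CPM) and *PDGFRB* (0.451 ± 0.257 to 9.24 ± 1.30 CPM), while *PDGFRA*, *COL1A2*, *DCN* and *LUM* had 5 counts or fewer in either group (SD, n = 3 each). The immune marker *PTPRC* was at 0 counts in all MDA-MB-231 libraries. In 4T1 the sum of 6 immune markers went from 224 to 250 CPM with DMSO to 138 to 156 CPM with ponatinib. Nearly all of it was *Cd14* (237 ± 13.3 to 144 ± 9.68 CPM, SD, n = 3 each). The part of these differences in the results below was not tested, and in bulk RNA fewer expressing cells and less RNA per cell cannot be told apart.

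In MDA-MB-231, 5 of the 9 tested genes were lower with ponatinib (*CCN1*, *CCN2*, *ANKRD1*, *LATS2* and *AXL*), 3 were higher (*CCN3*, *CCN5* and *AJUBA*) and *AMOTL2* was not called. The rise of *CCN5* in that line was part of how the genes were chosen, so its place in these counts is a description. In 4T1, 4 of 10 were higher (*Ccn1*, *Ccn2*, *Ccn5* and *Amotl2*), 2 were lower (*Ccn4* and *Ankrd1*) and 4 were not called. Calls were made at 0.05 on Benjamini-Hochberg adjusted p-values over all tested genes, from the quasi-likelihood test of edgeR, the test behind every adjusted p-value below. By the same rule 54% of all 14610 tested genes were called in MDA-MB-231 (27.2% higher and 26.8% lower) and 59% of 13286 in 4T1 (29.5% higher and 29.4% lower). The median log2 fold change of the 9 tested genes was -0.41 in MDA-MB-231, beside 0.02 for all tested genes, and that of the 10 genes was 0.05 in 4T1, beside -0.00. The treatments did not overlap for 8 of the human genes, beside 60.4% of all tested genes, and for 5 of the mouse genes, beside 63.4%. At the study's call rule (p under 0.05 unadjusted and at least 1.5-fold), 6 human genes and 3 mouse genes passed, beside 33.8% and 31.5% of all.

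**Figure D2:**
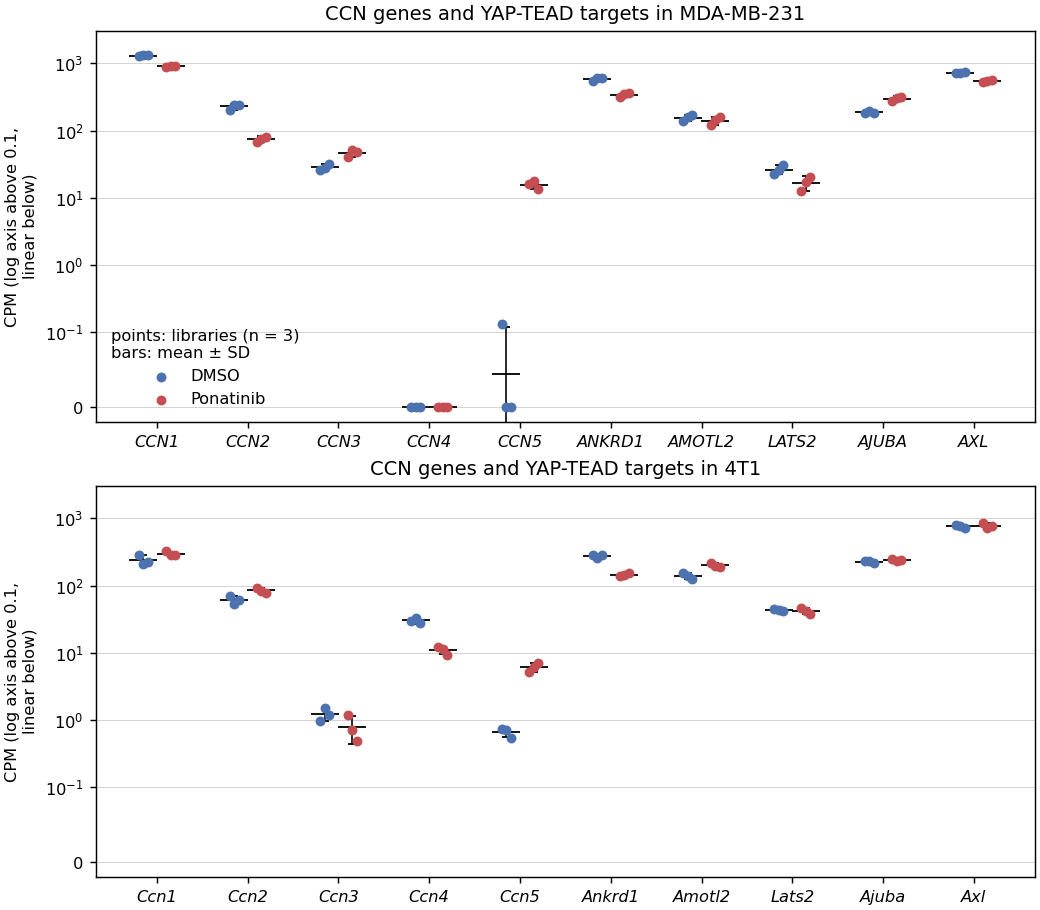
CPM of the 10 genes in each library, on an axis that is logarithmic above 0.1 CPM and linear below. Points are the 3 libraries per group (blue DMSO, red ponatinib) and black bars the mean ± SD. *CCN5* moves from the bottom of the MDA-MB-231 panel to 13.7 to 17.7 CPM, *CCN4* stays at 0 there, and *Ccn4* falls in the 4T1 panel.

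*CCN2* (ENSG00000118523, hg38 chr6:131948176-131951372, minus strand), which encodes connective tissue growth factor, fell most among the lowered genes in MDA-MB-231. Its 3 DMSO libraries held 201, 240 and 244 CPM, and the ponatinib libraries 68.4, 75.9 and 81.4 CPM. The groups lay far apart, at 228 ± 23.9 against 75.3 ± 6.49 CPM (SD, n = 3 each). This was a 3.03-fold fall, with a log2 fold change of -1.60 (standard error, SE, 0.10, edgeR adjusted p = 1.82e-07). In 4T1, *Ccn2* (ENSMUSG00000019997, GRCm39 chr10:24471333-24474900, plus strand) held 69.2, 52.5 and 60.8 CPM with DMSO and 91.8, 84.4 and 78.5 CPM with ponatinib. All ponatinib libraries lay above all DMSO libraries there, the opposite order to that in MDA-MB-231. The log2 fold change was 0.48 (SE 0.10, edgeR adjusted p = 7.63e-04).

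*CCN1* (ENSG00000142871, hg38 chr1:85580761-85584589, plus strand), whose protein CYR61 is an integrin-binding matrix protein, had the highest CPM of the 10 genes in MDA-MB-231. It held 1285, 1308 and 1328 CPM with DMSO and 893, 903 and 921 CPM with ponatinib. The groups were tight and did not overlap, and the log2 fold change was -0.53 (SE 0.07, edgeR adjusted p = 4.91e-05). In 4T1, *Ccn1* (ENSMUSG00000028195, GRCm39 chr3:145352720-145355738, minus strand) held 289, 207 and 221 CPM with DMSO and 323, 283 and 288 CPM with ponatinib. DMSO replicate 1 lay within the ponatinib range, so the groups overlapped although the gene was called higher, with a log2 fold change of 0.32 (SE 0.11, edgeR adjusted p = 0.0195). That call was lost without DMSO replicate 2 (adjusted p = 0.0920), DMSO replicate 3 (adjusted p = 0.0726) or ponatinib replicate 1 (adjusted p = 0.0761), again by edgeR. The exons of *Ccn1* share 468 bp with *Gm17501* on the opposite strand, which had 22, 26 and 32 counts with DMSO and 121, 125 and 119 with ponatinib. *Ccn2* likewise shares 1164 bp of exon with *Gm15270* on the opposite strand. *Gm15270* had 6, 4 and 2 counts with DMSO and 1, 4 and 1 with ponatinib. Human *CCN2* shares 278 bp with *LINC01013* on the opposite strand, which had 0 or 1 count per library. Whether counting used strand is not stated, so reads of the genes of each pair may not be told apart.

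*CCN3* (ENSG00000136999, hg38 chr8:119416446-119424434, plus strand), which encodes NOV, a CCN protein known to oppose several actions of CCN2, rose in MDA-MB-231. Its libraries held 25.9, 27.8 and 32.1 CPM with DMSO and 40.3, 50.8 and 48.3 CPM with ponatinib, without overlap. The log2 fold change was 0.70 (SE 0.11, edgeR adjusted p = 3.10e-04). In 4T1, *Ccn3* (ENSMUSG00000037362) was close to the limit of detection, with 17, 27 and 22 counts with DMSO and 23, 14 and 9 with ponatinib. The counts overlapped, and the log2 fold change of -0.61 (SE 0.37, edgeR adjusted p = 0.169) did not pass the test, but without replicate 1 of both groups it was -1.15 (adjusted p = 0.0250).

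*CCN4*, which encodes WISP1 and is known as a target of Wnt signaling, was detected in 4T1 alone. *CCN4* (ENSG00000104415) had 0 counts in all 6 MDA-MB-231 libraries, which allows up to 0.164 to 0.199 CPM per library (3 counts, counting error only). *Ccn4* (ENSMUSG00000005124, GRCm39 chr15:66763060-66795050, plus strand) held 30.1, 33.4 and 27.3 CPM in 4T1 with DMSO and 12.2, 11.3 and 9.38 CPM with ponatinib. The groups were well apart, a 2.76-fold fall with a log2 fold change of -1.47 (SE 0.13, edgeR adjusted p = 1.91e-07).

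*CCN5*, which encodes WISP2, rose in both lines from very low levels. *CCN5* (ENSG00000064205, hg38 chr20:44714844-44728509, plus strand) had 2, 0 and 0 counts in the MDA-MB-231 DMSO libraries and 252, 278 and 250 counts with ponatinib, or 15.9, 17.7 and 13.7 CPM. With 2 counts in all with DMSO, the ratio was 363 with an interval of 100.2 to 3005 (95% Clopper-Pearson, counting error only). This rise was known when the genes were chosen, and the gene passed the filter on low counts through the ponatinib libraries alone, so no test is given. Its fitted log2 fold change of 8.27 depends on the prior count and is not a bound. *Ccn5* (ENSMUSG00000027656, GRCm39 chr2:163662753-163675066, plus strand) was detected in every 4T1 library, with 13, 13 and 10 counts with DMSO and 101, 118 and 130 with ponatinib. Its level went from 0.669 ± 0.106 to 6.10 ± 0.943 CPM (SD, n = 3 each), a ratio of 9.11 (6.45 to 13.2) and a log2 fold change of 3.18 (SE 0.25, edgeR adjusted p = 7.28e-08). The DMSO library with 10 counts lay just under the filter on low counts, so *Ccn5* passed that filter through the ponatinib libraries. With at least 10 counts required in every library it was also called higher. *CCN6*, the remaining gene of the family, was not tested in either line, with 3 counts or fewer per MDA-MB-231 library and 9 or fewer per 4T1 library.

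Summed per kb of annotated exon, so that genes of unequal length can be added, the level of *CCN1* to *CCN5* was 462 ± 16.8 CPM per kb with DMSO and 298 ± 7.91 with ponatinib in MDA-MB-231 (SD, n = 3 each). *CCN1* made up 76.5% ± 1.61 of this sum with DMSO and 82.2% ± 1.10 with ponatinib, while the share of *CCN2* was 19.4% to 22.0% and 10.1% to 11.4%. *CCN3* made up 2.37% ± 0.189 and 5.96% ± 0.587, and *CCN5* reached 1.06% ± 0.147 with ponatinib. None of these shares overlapped between the treatments, which for *CCN5* restates the rise known when the genes were chosen. Shares of the same sum depend on each other, and that of *CCN1* rose although its level fell. In 4T1 the sum was 142 ± 23.8 CPM per kb with DMSO and 178 ± 12.4 with ponatinib, also without overlap, since DMSO replicate 1, the highest of its group at 169, lay just below the lowest ponatinib library at 171. The share of *Ccn1* was 82.6% ± 1.18 and 82.4% ± 0.609 in 4T1, that of *Ccn4* 3.57% ± 0.762 and 1.01% ± 0.0968, and that of *Ccn5* 0.220% ± 0.0422 and 1.60% ± 0.334. With 3 libraries against 3 an exact permutation test cannot give a p below 0.1, so no test of the sums and shares is given.

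**Figure D3:**
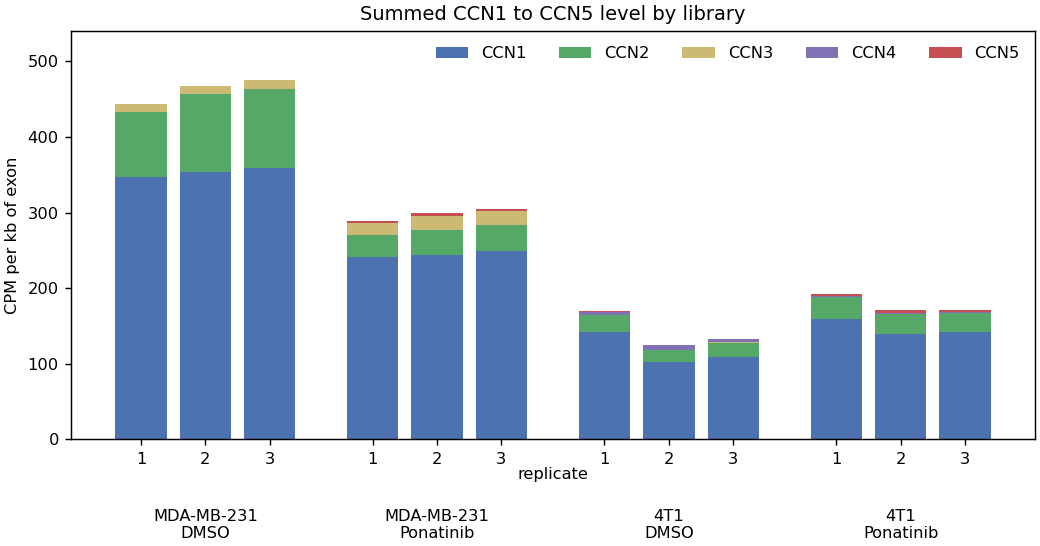
Summed level of *CCN1* to *CCN5* in CPM per kb of exon in each of the 12 libraries, with each gene's part as a coloured segment and the mouse genes under the human symbols. The bars fall from 443 to 476 with DMSO to 289 to 305 with ponatinib in MDA-MB-231, where the *CCN2* segment shortens, and stand at 125 to 169 and 171 to 192 in 4T1.

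*ANKRD1*, which encodes an ankyrin-repeat protein of the nucleus and the sarcomere, was lower in both lines. *ANKRD1* (ENSG00000148677, hg38 chr10:90912096-90921087, minus strand) held 548, 601 and 597 CPM in MDA-MB-231 with DMSO and 314, 355 and 360 CPM with ponatinib. The groups were far apart, with a log2 fold change of -0.76 (SE 0.08, edgeR adjusted p = 1.06e-05). In 4T1, *Ankrd1* (ENSMUSG00000024803, GRCm39 chr19:36089352-36097506, minus strand) held 285, 253 and 282 CPM with DMSO and 138, 142 and 154 CPM with ponatinib. This too was without overlap, with a log2 fold change of -0.92 (SE 0.08, edgeR adjusted p = 1.72e-07). In 4T1 *Ankrd1* fell while *Ccn1*, *Ccn2* and *Amotl2* were called higher.

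Of the genes whose products act back on the pathway, *AMOTL2* encodes an angiomotin that binds YAP, *LATS2* the kinase that phosphorylates YAP and TAZ, and *AJUBA* a LIM protein that binds and restrains LATS kinases. *AMOTL2* (ENSG00000114019, hg38 chr3:134355347-134375479, minus strand) held 138, 158 and 168 CPM in MDA-MB-231 with DMSO and 119, 143 and 159 CPM with ponatinib, so that the groups overlapped. Its log2 fold change was -0.14 (SE 0.11, edgeR adjusted p = 0.297), while with the replicate number as a block it was -0.14 with an adjusted p of 0.00532, past the threshold. Within each replicate number the ponatinib library was the lower one. In 4T1, *Amotl2* (ENSMUSG00000032531, GRCm39 chr9:102593836-102610617, plus strand) held 152, 139 and 125 CPM with DMSO and 216, 196 and 190 CPM with ponatinib. The groups did not overlap, and the log2 fold change was 0.54 (SE 0.08, edgeR adjusted p = 7.58e-05).

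*LATS2* (ENSG00000150457, hg38 chr13:20973036-21061586, minus strand) was at the lower end among the called genes, with 22.4, 26.2 and 30.5 CPM in MDA-MB-231 with DMSO and 12.4, 17.2 and 20.5 CPM with ponatinib. The highest ponatinib library came close to the lowest DMSO library, and the log2 fold change was -0.65 (SE 0.17, edgeR adjusted p = 0.00660). That call was lost without replicate 2 of both groups (adjusted p = 0.0560). *Lats2* (ENSMUSG00000021959) in 4T1 had 43.8 ± 1.53 CPM in DMSO libraries (SD, n = 3) and 41.9 ± 4.61 CPM in ponatinib libraries, a log2 fold change of -0.06 (SE 0.09, edgeR adjusted p = 0.596).

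*AJUBA* (ENSG00000129474, hg38 chr14:22971177-22982551, minus strand) rose in MDA-MB-231, where *CCN1*, *CCN2*, *ANKRD1*, *LATS2* and *AXL* fell. It held 181, 197 and 181 CPM with DMSO and 271, 307 and 318 CPM with ponatinib. The groups did not overlap, at a log2 fold change of 0.68 (SE 0.08, edgeR adjusted p = 3.13e-05). *Ajuba* (ENSMUSG00000022178) in 4T1 had 226 ± 7.21 CPM in DMSO libraries (SD, n = 3) and 240 ± 11.0 CPM in ponatinib libraries, and its log2 fold change of 0.09 (SE 0.07, edgeR adjusted p = 0.306) did not pass the test. Scaled by total counts, which shifts the median of all genes in 4T1 to 0.12, it was 0.20 and passed (adjusted p = 0.0196).

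*AXL* (ENSG00000167601, hg38 chr19:41219223-41261766, plus strand) encodes a receptor tyrosine kinase of the TAM family whose ligand is GAS6. Its MDA-MB-231 libraries held 707, 726 and 752 CPM with DMSO and 524, 553 and 573 CPM with ponatinib. The groups did not overlap, with a 1.32-fold fall and a log2 fold change of -0.41 (SE 0.07, edgeR adjusted p = 5.48e-04). *Axl* (ENSMUSG00000002602) in 4T1 had 769 ± 39.5 CPM in DMSO libraries (SD, n = 3) and 777 ± 63.1 CPM in ponatinib libraries, with a log2 fold change of 0.01 (SE 0.08, edgeR adjusted p = 0.889).

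Whether the response depended on the line was tested in edgeR as an interaction term, over 12488 genes of the same symbol. The difference is the response in 4T1 minus that in MDA-MB-231 on the log2 scale, fitted jointly. Of the 9 genes that could be fitted 8 were past the threshold, where 41.9% of all tested genes were. *CCN5* is among the 8 as a description only, since its rise in MDA-MB-231 was known when the genes were chosen. *CCN2* differed by 2.01 (SE 0.15, edgeR adjusted p = 3.67e-09), falling in the human line and rising in the mouse line. *CCN1* also went in opposite directions and differed by 0.78 (SE 0.14, edgeR adjusted p = 1.84e-04). *AMOTL2* differed by 0.60 (SE 0.14, edgeR adjusted p = 0.00214), with a called rise in 4T1 alone. For *CCN5* the fitted difference was -5.19, given as a description, since it rests on 2 counts with DMSO in MDA-MB-231 and ranged from -8.01 to -4.66 with single libraries left out. The difference for *CCN3* was -1.38 (SE 0.34, edgeR adjusted p = 0.00293), and that for *AJUBA* was -0.67 (SE 0.11, edgeR adjusted p = 6.19e-05). These are genes called higher in MDA-MB-231 and not called in 4T1. *AXL* differed by 0.35 (SE 0.11, edgeR adjusted p = 0.0170). *LATS2* differed by 0.52 (SE 0.20, edgeR adjusted p = 0.0440), but this call rested on single libraries. It was lost without MDA-MB-231 DMSO replicate 2 (adjusted p = 0.0656) or 3 (0.137), MDA-MB-231 ponatinib replicate 1 (0.106) or 2 (0.0661), 4T1 DMSO replicate 3 (0.0538) or 4T1 ponatinib replicate 1 (0.0706). For *ANKRD1* the difference of -0.23 (SE 0.12, edgeR adjusted p = 0.127) did not pass, but with the replicate number as a block it was -0.22 with an adjusted p of 0.0141. *CCN4* was not tested, being at 0 in MDA-MB-231.

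**Figure D4:**
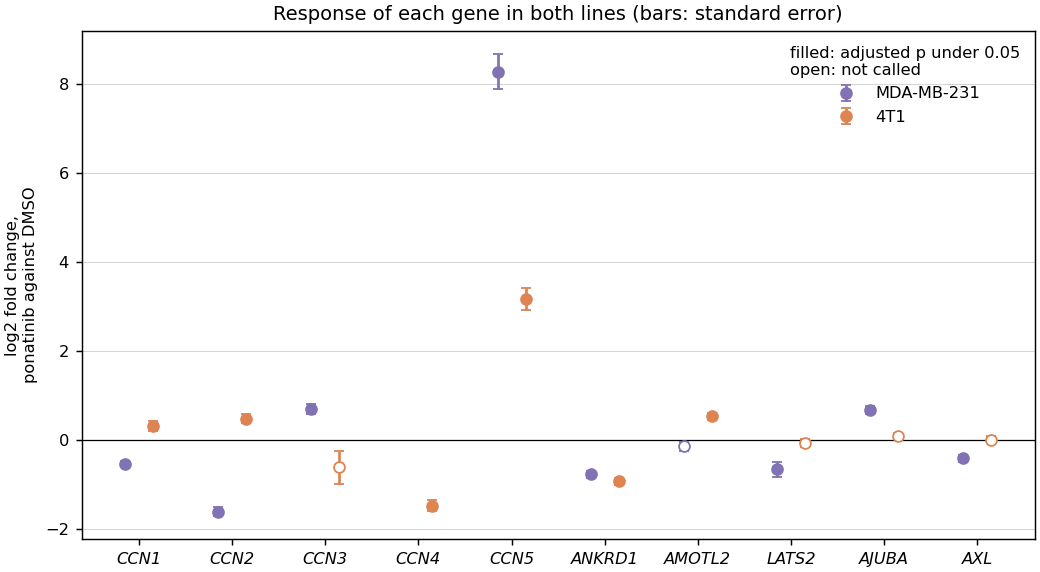
Log2 fold change of ponatinib against DMSO for each gene, in MDA-MB-231 (purple) and 4T1 (orange). Standard errors are derived from the fold change and the edgeR test statistic. Filled points passed an adjusted p of 0.05 and open points did not. The filled *CCN5* point of MDA-MB-231 is a description, since that rise was known when the genes were chosen. Its bar does not show the counting error of 2 DMSO counts. *CCN1* and *CCN2* lie on opposite sides of 0 in the lines, *ANKRD1* lies below 0 in both, and *CCN5* stands at 8.27 and 3.18.

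Levels of different genes were compared per kb of annotated exon. With DMSO in MDA-MB-231, *CCN1* (354 ± 5.82 CPM per kb) and *ANKRD1* (325 ± 16.4) led, followed by *AXL* at 142 ± 4.37, *CCN2* at 97.6 ± 10.2, *AJUBA* at 31.7 ± 1.53, *AMOTL2* at 23.9 ± 2.32, *CCN3* at 11.0 ± 1.22 and *LATS2* at 4.70 ± 0.722 (SD, n = 3 each). Neighbours in this order did not overlap, other than *CCN5* and *CCN4* at its end. With ponatinib *AJUBA* (50.8 ± 4.19) stood above *CCN2* (32.2 ± 2.78), and *CCN5* (3.17 ± 0.404) and *LATS2* (2.98 ± 0.726) overlapped. That closeness depends on the length used, since by the longest transcript *CCN5* was at 5.71 and *LATS2* at 3.01.

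In 4T1 with DMSO, *Ccn1* led at 118 ± 21.5 CPM per kb, followed by *Ankrd1* at 91.7 ± 5.83 and *Axl* at 83.8 ± 4.30, whose libraries overlapped. *Ajuba* stood at 59.4 ± 1.90, *Amotl2* at 19.6 ± 1.89 and *Ccn2* at 19.1 ± 2.62 (SD, n = 3 each), and the libraries of *Amotl2* and *Ccn2* overlapped. *Ccn4* (4.98 ± 0.503) and *Lats2* (4.17 ± 0.146) did not overlap, and *Ccn5* (0.309 ± 0.0490) and *Ccn3* (0.215 ± 0.0474) did. With ponatinib *Ankrd1*, at 48.5 ± 2.91, came after *Ccn1*, *Axl* and *Ajuba*, an order that also depends on the length used, since by the longest transcript *Ankrd1* (68.6) stood above *Ajuba* (67.7) and *Axl* came first. Measured by the longest transcript in place of all exons, 4 of the 4T1 ranks with DMSO changed, and *Axl* came first at 166 CPM per kb.

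Other targets of YAP and TEAD moved both ways. Of 16 further targets in MDA-MB-231, 4 were higher, 6 lower and 6 not called, with a median log2 fold change of -0.15. Under scaling by total counts 5 were higher and 4 lower. Of all tested genes in that line, 27.2% were higher and 26.8% lower in the main fit. *NT5E*, the ecto-enzyme that makes adenosine, fell from 309 ± 20.7 to 115 ± 7.20 CPM (log2 fold change -1.42), and *FJX1* fell by 0.63 on the log2 scale. *TGFB2*, a ligand of the TGF-β receptors, rose from 63.1 ± 5.02 to 141 ± 18.9 CPM (1.16), and *ARHGEF17* rose by 0.59. In 4T1, 7 of the 15 tested targets were higher, 5 lower and 3 not called, with a median of 0.06, where 29.5% of all tested genes were higher and 29.4% lower. *Igfbp3*, which binds insulin-like growth factors, fell from 207 ± 16.2 to 46.4 ± 2.99 CPM (-2.16). *Ccdc80*, *Tgfb2* and *Nuak2* rose, with log2 fold changes of 1.99, 1.81 and 1.48. *TGFB2* was thus called higher in both lines.

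The upstream Hippo genes are described by counts, beside the shares of all tested genes given above. In MDA-MB-231, 8 of 17 tested Hippo kinases and upstream regulators were lower and 0 were higher by edgeR, with 9 not called. At an unadjusted p under 0.05 1 was higher, by DESeq2 0 were, and under scaling by total counts or with the replicate block 1 was. The number lower stayed at 8 in the first 2 of these, and was 7 under total counts and 11 with the block. *FRMD6* (-0.83), *STK3* (-0.69), *AMOTL1* (-0.68) and *NF2* (-0.63) fell most on the log2 scale, and *LATS1* (-0.16, adjusted p = 0.378 by edgeR) was not called. The median log2 fold change was -0.22, beside 0.02 for all genes. In 4T1, 8 of 18 were lower and 5 higher, with a median of -0.02. *Frmd6* (-0.99), *Amotl1* (-0.99), *Taok1* (-0.89) and *Mob1b* (-0.60) led the falls, and *Lats1* fell by 0.51 on the log2 scale. The call of *Mob1b* was lost without replicate 3 of both groups (adjusted p = 0.0758).

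Among the transcription factors themselves, 2 of 8 were lower in the human line and 4 of 7 in the mouse line, and 0 were higher in either line by edgeR and by DESeq2. At an unadjusted p under 0.05, 0 human and 1 mouse gene were higher, and under scaling by total counts 1 was higher in each. With the replicate block 4 human genes were lower and 1 was higher. Of all tested genes, 26.8% were lower in the human line and 29.4% in the mouse line in the main fit. *WWTR1*, which encodes TAZ, fell from 25.1 ± 2.25 to 15.2 ± 1.18 CPM in MDA-MB-231 (log2 fold change -0.71) and from 216 ± 5.88 to 142 ± 6.23 CPM in 4T1 (-0.61). *TEAD4* fell in both, with log2 fold changes of -0.75 and -0.69. *YAP1* went from 87.6 ± 11.6 to 75.3 ± 6.01 CPM in MDA-MB-231 (-0.22, adjusted p = 0.0993 by edgeR, or 8.65e-04 with the replicate block and 0.00776 without DMSO replicate 1) and from 183 ± 5.07 to 141 ± 10.6 CPM in 4T1 (-0.37, adjusted p = 6.28e-04). *Tead1* was lower in 4T1 (-0.57) and not called in MDA-MB-231 (-0.06). *TEAD2* (0.20 and 0.08) and *TEAD3* (0.11 and 0.02) were not called in either line. In MDA-MB-231 *TEAD2* passed with the replicate block (adjusted p = 0.0400) and under scaling by total counts (adjusted p = 0.0469), and *TEAD3* passed without replicate 1 of both groups (adjusted p = 0.0390).

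Receptors of CCN proteins are integrins and members of the LDL receptor family. In MDA-MB-231, 3 of 8 tested receptors were higher and 3 lower, beside transcriptome-wide shares of 27.2% and 26.8%. In 4T1, 2 of 9 were higher and 5 lower, or 3 higher and 3 lower under scaling by total counts. The transcriptome-wide shares in 4T1 were 29.5% and 29.4% in the main fit. *LRP1*, an endocytic receptor that binds CCN2, rose in both lines, from 31.3 ± 2.79 to 104 ± 5.86 CPM in MDA-MB-231 (log2 fold change 1.73) and from 202 ± 29.1 to 561 ± 126 CPM in 4T1 (1.47). *ITGA6*, the laminin-binding integrin α6, fell in both, with log2 fold changes of -1.22 and -1.02. *ITGA5* fell (-0.62) and *LRP6* rose (0.61) in MDA-MB-231, while *Itgb5* rose (1.18) and *Itgav* fell (-0.71) in 4T1.

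Of the other TAM receptors and their ligands in MDA-MB-231, 2 ligands rose and 1 receptor fell, as *AXL* did. Its ligand *GAS6* rose from 235 ± 29.2 to 354 ± 43.1 CPM (log2 fold change 0.59), the related ligand *PROS1* from 39.0 ± 3.67 to 63.4 ± 3.91 CPM (0.70), and the sister receptor *TYRO3* fell from 25.1 ± 2.18 to 12.7 ± 0.500 CPM (-0.98). *MERTK* was not called (0.11, adjusted p = 0.593 by edgeR). Of all tested genes in MDA-MB-231, 27.2% were higher and 26.8% lower. In 4T1 *Gas6* had 1 count over all 6 libraries, *Mertk* was under 1 CPM, and *Tyro3* was called lower at a log2 fold change of -0.34. That call was lost when DMSO replicate 1 (adjusted p = 0.0815), ponatinib replicate 1 (adjusted p = 0.0658) or ponatinib replicate 2 (adjusted p = 0.0763) was left out and under scaling by total counts (adjusted p = 0.112).

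*CCN1*, *CCN2* and *ANKRD1* are also read as targets of SRF with its coactivator MRTF and of TGF-β with SMAD factors, so further targets of both were listed. Of SRF and MRTF targets in MDA-MB-231, 1 was higher, 2 lower and 6 not called. The main fit there called 27.2% of its whole tested set higher and 26.8% lower. In 4T1, 1 was higher, 1 lower and 5 not called, and 3 were lower with the replicate block. The whole-set shares in 4T1 were 29.5% higher and 29.4% lower. Under scaling by total counts the MDA-MB-231 split turned to 3 higher and 1 lower, and with the replicate block it was 2 higher and 3 lower. *TPM1* rose (0.74), and *TAGLN* (-0.58) and *FHL2* (-0.23) fell in MDA-MB-231, while *Cnn2* rose (0.89) and *Fhl2* fell (-0.34) in 4T1. The call of human *FHL2* was lost without ponatinib replicate 3 (adjusted p = 0.0708) and under scaling by total counts (adjusted p = 0.172).

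Of 8 TGF-β and SMAD targets, 4 fell and 0 rose in MDA-MB-231 by edgeR, at an unadjusted p under 0.05 and by DESeq2 alike. In 4T1, 3 were lower and 4 higher. By edgeR, 26.8% of everything tested in MDA-MB-231 fell and 27.2% rose, against 29.4% and 29.5% in 4T1. *PMEPA1*, which restrains SMAD signaling, fell in MDA-MB-231 (log2 fold change -0.66) and rose in 4T1 (0.94). *Ltbp2*, a matrix protein of the fibrillin family, rose in 4T1 (1.33).

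**Figure D5:**
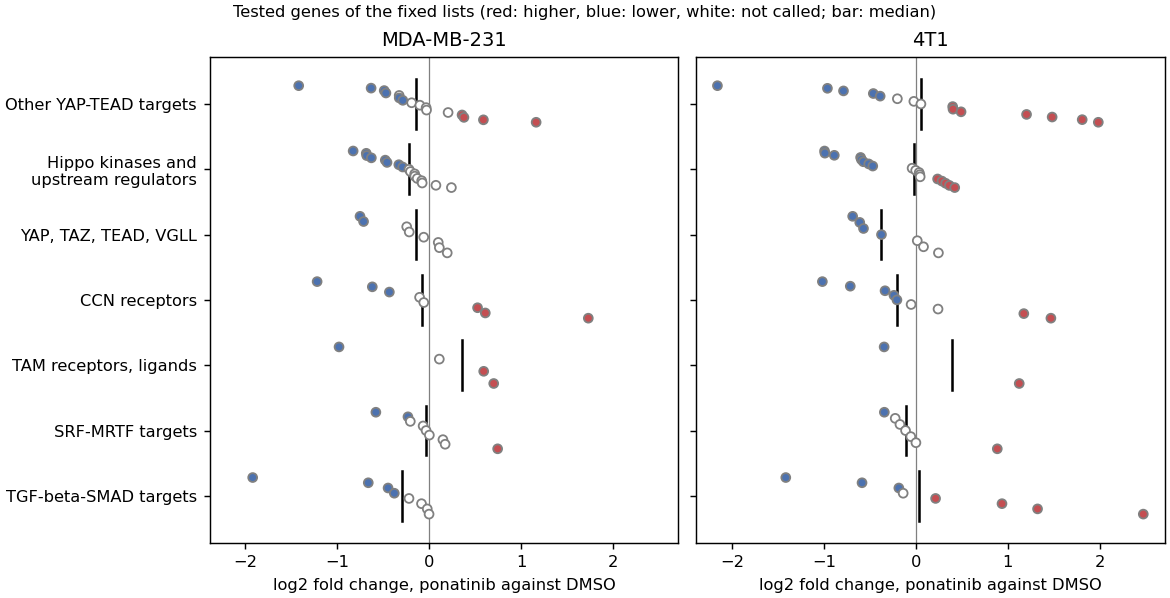
Log2 fold change of ponatinib against DMSO for every tested gene of 7 lists, with MDA-MB-231 on the left and 4T1 on the right. Red points were called higher, blue points lower and white points were not called, and black bars are list medians. No Hippo regulator is red in MDA-MB-231, where 8 are blue, and 5 are red in 4T1.

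The genes with the profile closest to *CCN1*, *CCN2* and *CCN5* over the 6 libraries of a line were found by the root mean square difference of log2 CPM relative to the DMSO mean, among 9609 human and 9468 mouse genes. For *CCN2* in MDA-MB-231 these were *NAMPT* (0.0242), *UBASH3B* (0.0382) and *UAP1* (0.0581), and for *CCN1* they were *ATP1B3* (0.0219), *CCNB1* (0.0228) and *SKA2* (0.0248). No gene came as close to *CCN5*, for which *ELF3* (0.566), *NUPR1* (0.687) and *ALPP* (0.854) were nearest. In 4T1 the nearest were *Vps51* (0.0363), *Slc27a1* (0.0550) and *Cxcl5* (0.0555) for *Ccn2*, *Mgrn1* (0.0515), *Ndufb7* (0.0628) and *Mrpl2* (0.0652) for *Ccn1*, and *Cbr2* (0.171), *Islr2* (0.193) and *Tmt1b* (0.200) for *Ccn5*. This describes likeness of level profiles over 6 libraries, which mostly reflects a like fold change (-1.62 for *NAMPT*). None of the neighbours is shared between the lines. This says little, since *CCN1* and *CCN2* moved in opposite directions there.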

How the data were processed

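RNA-seq was made of 12 samples, 3 per line and treatment, grouped by their labels. As the methods state, the authors removed adapters and poly-N reads, aligned the rest with HISAT2 to hg38 or GRCm39 and counted genes with HTSeq. The deposited values are their raw counts per gene. Tool versions, annotation and strand setting are not given in the sources used here. The authors tested with DESeq2.

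Gene names and exon lengths came from GENCODE, which matched 81.95% of the human and 91.07% of the mouse identifiers, holding 99.32% and 99.79% of the counts. Each line was fitted apart by the quasi-likelihood test of edgeR 4.0.16 under R 4.3.3, after TMM and filterByExpr, with p-values adjusted over all tested genes (Benjamini-Hochberg), and the lines were compared by the interaction over genes of the same symbol. The steps were run on simulated counts in which 200 genes changed. Far more genes were called here, so the simulation does not test the fits at such a share. MDA-MB-231 had a common biological coefficient of variation of 0.0990 and 4T1 one of 0.0869. Replicates differed by a chi-square per gene of 2.93 to 16.5, so no library repeats another. The members and the lists were chosen with earlier results of these data known, and the lists were written from general knowledge. Beside the members and the genes of the pathway core, up to 4 genes per list are named, those with the largest log2 fold change at an adjusted p under 0.05 and a mean of at least 10 CPM, and the 3 nearest profiles of *CCN1*, *CCN2* and *CCN5* (log2 CPM with a prior count of 2).

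Same-numbered DMSO and ponatinib libraries deviated together from their group means (MDA-MB-231 correlations of 0.345, 0.111 and 0.133, 4T1 correlations of 0.213, 0.119 and 0.115). All exceed 0.1, so the numbers count as pairs by this measure alone, although for 2 of the 6 numbers, MDA-MB-231 replicate 2 (0.163) and 4T1 replicate 3 (0.119), the correlation with another number was higher. The adjusted p-values printed are from fits without the block, as the authors' methods name none, and blocked values stand beside the results whose call they change. Alternatives were DESeq2 1.42.0, its size factors in edgeR, total counts, no filter, a minimum of 10 counts per library, the replicate block, each replicate left out, the authors' call rule (p under 0.05 unadjusted, at least 1.5-fold), the longest transcript as length and a promoter window of 250 bases. For 1 list gene that the naming rule includes and for 1 mouse promoter, results are not reported here.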

Additional observations from a re-analysis of the deposited data

Results flagged for a closer look

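The response to ponatinib differed between the lines, by edgeR's test of the interaction term, for 8 genes. The differences, as 4T1 minus MDA-MB-231 on the log2 scale, were 2.01 for *CCN2*, 0.78 for *CCN1*, 0.60 for *AMOTL2*, 0.52 for *LATS2* and 0.35 for *AXL*, and -5.19 for *CCN5*, -1.38 for *CCN3* and -0.67 for *AJUBA*. The value for *CCN5* rests on 2 counts with DMSO in MDA-MB-231, and its rise there was known when the genes were chosen. Its place among the 8 is therefore a description and not a test. All 9 testable genes other than *ANKRD1* are among them, beside 41.9% of all tested genes. Groups of 3 libraries are too small for a search for single outlying libraries.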

How the results depend on the processing

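No called change of a named gene took the other direction in any alternative. Of those not called, *Axl*, *Lats2*, *Tead2* and *Tead3* in 4T1 and *MERTK* and *TEAD1* in MDA-MB-231, 6 in all, changed sign in at least 1 alternative (16 values) without being called. The count of called genes was 8 in MDA-MB-231 and 7 to 8 with a replicate left out, 6 in 4T1 and 5 to 7, and for the difference between the lines 8 and 7 to 8. With the study's call rule (p under 0.05 unadjusted, at least 1.5-fold), 3 of the 4T1 genes were called (1 higher and 2 lower), by construction a stricter size limit. With the longest transcript as length, 4 of the ranks in 4T1 with DMSO changed and 0 in MDA-MB-231. With the replicate block 9 human and 6 mouse genes were called and 9 differed between the lines. *AMOTL2*, *YAP1* and *TEAD2* in MDA-MB-231 and the difference of *ANKRD1* were called with the block and not without it, and it changed no other named call. With at least 10 counts in every library *CCN5* of MDA-MB-231 and *Ccn3* could not be tested. Over single genes, 1240 values kept their side of the threshold, 11 passed it newly and 23 lost it. The near-empty DMSO libraries limit the size of the *CCN5* change, and 3 libraries a group limit the tests.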
